A study of Rattus norvegicus with 3 samples.

Results

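Neonatal rat ventricular cardiomyocytes that received both an expression vector for the enzyme 11β-HSD1 and BVT.2733, an inhibitor of that enzyme (HSD1+BVT), were compared with cells that received the matching empty vector (Control). The comparison rests on 2 of the 3 arrays of the study, 1 for each group, and on the 11721 genes whose probe was well above background on both. The third array, of cells with the 11β-HSD1 vector and no inhibitor (HSD1), is given beside them for single genes and for some lists. Each array was hybridised with RNA from a pool of cultured heart cells of newborn rats, so there were no replicates and every difference is a size without a test. Not stated in the sources used here are the doses, the exposure times, the strain of rat, the species of the vector's insert and how many cultures made up a pool. No group used here received the inhibitor without the vector. The design addresses how 11β-HSD1 acts on the enlargement of heart muscle cells, and this comparison shows cells under both treatments against cells that had neither.

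11β-HSD1 is an enzyme of the endoplasmic reticulum that turns inactive 11-keto glucocorticoids into active ones, using cofactor that the enzyme encoded by H6pd supplies. The active steroid binds the glucocorticoid receptor, a transcription factor that raises genes such as Fkbp5 and Tsc22d3 and lowers many inflammatory genes. Heart muscle takes most of its energy from fatty acids, and the genes for their uptake, activation and oxidation in mitochondria are controlled by nuclear receptors of the PPAR family and, for some of them, by the glucocorticoid receptor.

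Signals are given on the log2 scale relative to the 75th percentile of all gene spots on the same array, so that 0 is the level of that percentile. A ratio is the signal on the HSD1+BVT array minus that on the Control array. Genes were counted as higher or lower at 2-fold or more, a log2 ratio of at least 1 in size. Of the 11721 genes, 344 were higher (2.93%) and 88 were lower (0.751%), 432 in all (3.69%), and the median ratio of all genes was 0.05. These shares are the comparison for each count of list members on the HSD1+BVT array below. In 95% of genes the ratio lay between -0.68 and 1.06. The split of higher to lower genes was 194 to 155 after quantile normalization, 190 to 149 in the authors' log2 values and 232 to 146 after cyclic loess, against 344 to 88 here. It was 898 to 551 without the filter on dim probes. Only technical error could be measured. Across 1256 probes printed several times, the median SD between spots of a probe was 0.06 for the ratio, and it was 0.11 in the dimmest 25% of these probes. The scanner software's own error model gave a larger error for the ratios of the 11721 genes, with a median of 0.20, and 0.32 at the 95th percentile. With the genes ranked by brightness in 4 groups of 2930 or 2931, the higher genes numbered 151, 94, 62 and 37 from the dimmest group to the brightest, and the lower genes 29, 37, 16 and 6. Control and HSD1 shared scan 1 and HSD1+BVT stood alone in scan 2, and therefore treatment and scan cannot be told apart.

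**Figure D1:**
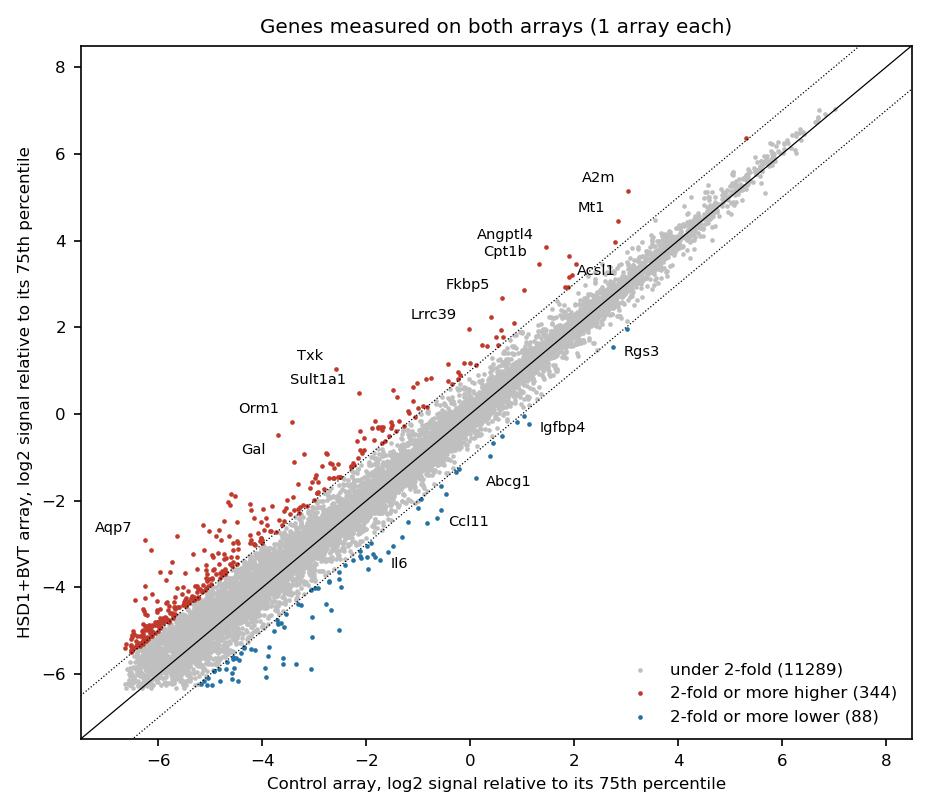
Signals of 11721 genes on the Control array (x axis) and the HSD1+BVT array (y axis), both log2 relative to the array's 75th percentile. Red points are the 344 genes 2-fold or more higher, blue points the 88 genes 2-fold or more lower, the solid line marks equality and the dotted lines mark 2-fold; the higher genes spread wider toward the dim end, while A2m, Mt1 and Acsl1 stand above the band among bright genes.

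Hsd11b1, the gene of the targeted enzyme, read 3.39 on the Control array, 3.86 on the HSD1 array and 3.76 on the HSD1+BVT array. With vector and inhibitor it was thus 1.30-fold above Control, under the 2-fold size. The files do not show whether its probe detects RNA made from the vector. H6pd had a ratio of 0.75 by its brighter probe and 0.77 by its other one, 1.68-fold above Control. Hsd11b2, which encodes the enzyme that inactivates glucocorticoid, was dim and had a ratio of 0.27. The glucocorticoid receptor gene Nr3c1 had a ratio of -0.25, and of -0.79 by its other probe, and the mineralocorticoid receptor gene Nr3c2 one of -0.09. None of the 14 measured genes of glucocorticoid activation, receptors and chaperones was 2-fold from Control. The median of the 14 was 0.00, and its sign turned under 6 of the 8 alternative settings.

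Target genes of the glucocorticoid receptor had the highest median of the 41 pathway lists, though xenobiotic metabolism was above them with no filter on dim probes (0.61 against 0.54) and with the normexp background correction (0.36 against 0.33). Of 39 measured members, 10 were higher (25.6%, against 2.93% of all genes), 1 was lower and 37 had a ratio above 0, with a median of 0.57 against 0.05 for all genes. The count of higher members was between 7 and 11 and the median between 0.33 and 0.57 over all settings. This list, like the others, was drawn up with earlier results of these data known, so its rank and share are descriptions only. On the HSD1 array, compared with the same Control array, 12 of 39 were higher, 1 was lower and the median was 0.52, where 1.88% of all genes differed 2-fold, 1.33% higher and 0.547% lower. Orm1, an acute-phase plasma protein, had the highest ratio in the list. It read -3.43 in Control, 0.71 in HSD1 and -0.18 in HSD1+BVT. A2m, the protease inhibitor alpha-2-macroglobulin, read 3.04, 5.44 and 5.15 in the same order, 4.32-fold higher than Control, and its other probe gave a ratio of 2.58. In both genes the HSD1+BVT array stood far above Control and somewhat below HSD1.

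The metal-binding metallothioneins were higher as well. Mt1 read 2.83 in Control, 4.29 in HSD1 and 4.46 in HSD1+BVT, 3.08-fold above Control. Mt2A read 5.30, 6.41 and 6.36 in the same order, 2.08-fold above Control. Tsc22d3, which encodes the anti-inflammatory leucine zipper protein GILZ, read 1.90, 2.91 and 3.16, 2.40-fold above Control. Sgk1, a kinase that promotes sodium uptake, read -1.37, -0.09 and -0.16, 2.32-fold above Control, and had a ratio of 1.00, just under 2-fold, with the normexp background correction. For these 4 genes the 2 arrays of vector-treated cells lay within 0.26 of each other on the log2 scale, and Control lay below both.

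Fkbp5, a co-chaperone that lowers the receptor's affinity for steroid, showed the same order, with 0.62 in Control, 2.69 in HSD1 and 2.68 in HSD1+BVT. Pdk4 and Angptl4, which are also genes of fuel use, had another order and are described with the lipid genes. Members between 1-fold and 2-fold included Klf15, a transcription factor of amino acid and lipid metabolism, with a ratio of 0.65 (1.22 on the HSD1 array), and the clock gene Per1 with 0.72. Dusp1, a phosphatase that inactivates MAP kinases, had a ratio of 0.39, and Cebpb, a transcription factor of the acute-phase response, 0.26. Mertk, a receptor tyrosine kinase with which phagocytes clear dead cells, went the other way, with -3.95 in Control, -5.75 in HSD1 and -5.87 in HSD1+BVT. Its ratio of -1.92 became -0.85 with the normexp correction.

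**Figure D2:**
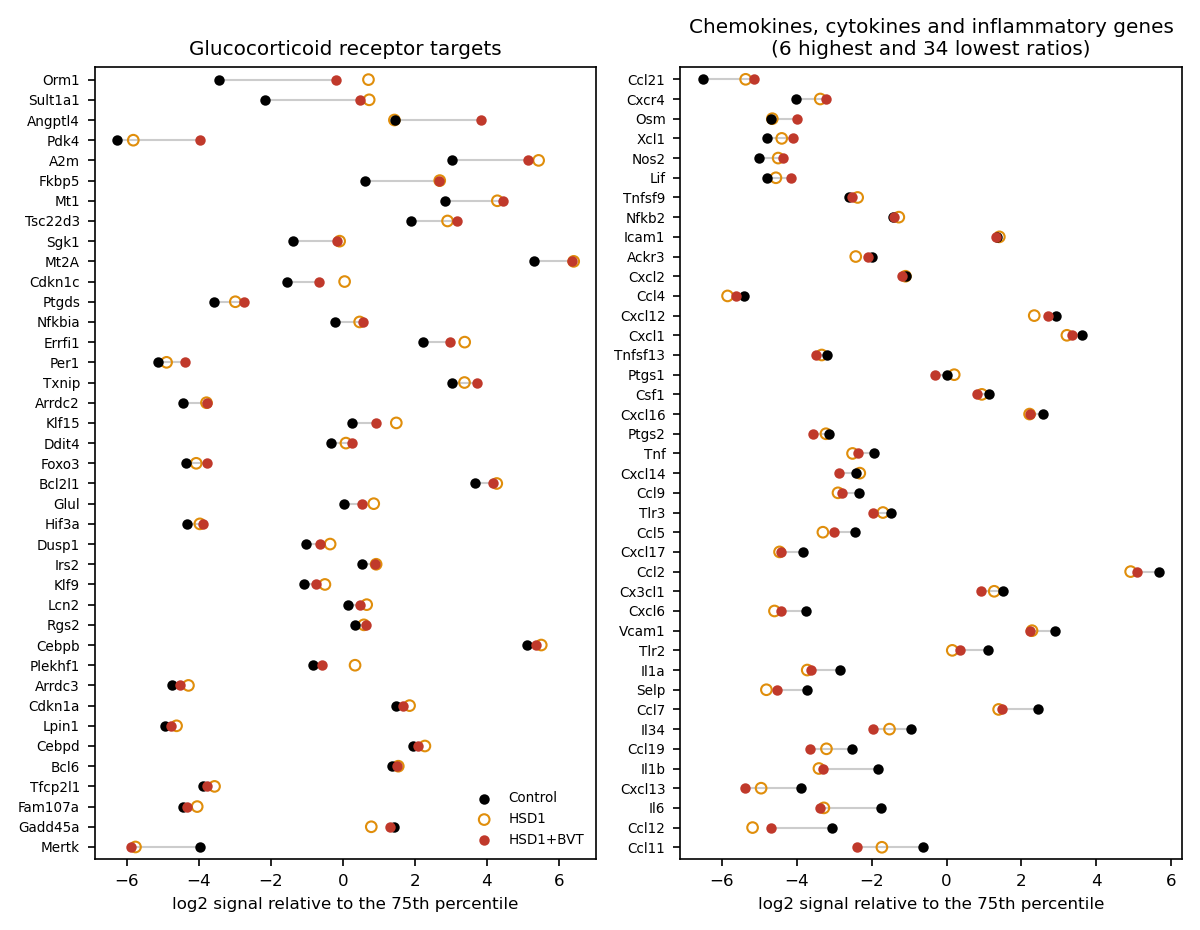
Signals of single genes on the 3 arrays (x axis, log2 relative to the array's 75th percentile), ordered by the ratio of HSD1+BVT to Control; black, Control; open orange, HSD1; red, HSD1+BVT; 1 array each, so no error bars. On the left are the 39 measured glucocorticoid receptor targets, 37 of them with the red point right of the black one. On the right are 40 chemokine, cytokine and inflammatory genes, with Ccl11, Ccl12, Il6, Cxcl13 and Il1b at the bottom, where the red point lies left of the black one. These 40 were picked by ratio, a few of the highest and otherwise the lowest, so the panel leans lower than the lists. Of all 31 measured cytokines and inflammatory enzymes 17 had a ratio above 0 and 14 one below 0.

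Promoter windows of the higher genes were searched for the receptor's binding motif. The windows were 300 bases long, from 250 bases before to 50 after the annotated start, and came from RefSeq on the GRCr8 assembly, which is newer than the array's annotation. The glucocorticoid response element was written as GNACANNNTGTNC, a palindrome that reads alike on both strands. It was found in 116 of 27457 windows (0.422%). Of the 10 higher receptor targets 9 had a window, and 1 of these 9 held the motif, which was Orm1. Of all 33 measured targets with a window, 2 held it, Orm1 and Fam107a. Both windows are printed because they carry the same motif beside unequal ratios. Capitals mark the match, which begins 130 bases before the start of Orm1 (chr5:81788259-81788558, plus strand) and 210 bases before that of Fam107a (chr15:19046331-19046630, plus strand).
Orm1: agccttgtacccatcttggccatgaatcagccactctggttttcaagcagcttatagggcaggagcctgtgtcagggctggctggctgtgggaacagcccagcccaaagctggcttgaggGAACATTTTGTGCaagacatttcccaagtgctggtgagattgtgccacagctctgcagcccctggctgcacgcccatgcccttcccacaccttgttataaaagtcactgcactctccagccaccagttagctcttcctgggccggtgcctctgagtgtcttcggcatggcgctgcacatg
Fam107a: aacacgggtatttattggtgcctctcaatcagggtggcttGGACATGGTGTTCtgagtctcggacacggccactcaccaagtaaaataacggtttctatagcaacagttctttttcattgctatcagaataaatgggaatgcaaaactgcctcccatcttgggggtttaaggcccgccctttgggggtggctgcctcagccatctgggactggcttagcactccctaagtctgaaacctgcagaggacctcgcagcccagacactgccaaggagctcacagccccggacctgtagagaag
Orm1 was 9.51-fold above Control, whereas Fam107a, which encodes an actin-associated protein, had a ratio of 0.10 and read -4.43 in Control, -4.04 in HSD1 and -4.34 in HSD1+BVT. A match to these letters is not a measured binding site, and a missing match concerns this window only. The PPAR element written as AGGNCANAGGNCA (both strands searched) was in 113 of all 27457 windows (0.412%) and in none of the 12 windows among the 18 higher genes of the lipid lists.

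Among 31 measured genes of fatty acid oxidation, 8 were higher with vector and inhibitor (25.8%, against 2.93% of all genes) and none was lower. Of the 31, 26 had a ratio above 0 and 5 one below 0, and the median was 0.44. On the HSD1 array, against the same Control array, none of 30 was higher or lower and the median was 0.03. The count of higher members ranged from 5 to 9 and the median from 0.32 to 0.44 over all settings. Cpt1b and Cpt1a make acylcarnitine at the outer mitochondrial membrane, the step that lets long-chain fatty acids enter. The muscle form Cpt1b read 1.33 in Control, 1.84 in HSD1 and 3.45 in HSD1+BVT, and its other probe gave a ratio of 0.95, just under 2-fold. The liver form Cpt1a read -1.51, -1.22 and -0.26 in the same order, 2.39-fold above Control. Slc25a20, the carrier that takes acylcarnitine across the inner membrane, read -1.70, -1.98 and -0.36, 2.54-fold above Control. On all 3 of these genes the HSD1+BVT array was the highest and the other 2 lay closer to each other.

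Enzymes inside the mitochondrion followed the same order. Acaa2, which catalyses the last step of the cycle, read -1.09 in Control, -1.04 in HSD1 and 0.29 in HSD1+BVT, 2.61-fold above Control. Decr1, needed for the double bonds of unsaturated fatty acids, read 2.79, 2.79 and 3.96, 2.25-fold above Control. Hadha, the alpha subunit of the trifunctional protein, had a ratio of 1.00, at the threshold, and Hadhb, its beta subunit, one of 0.88, just under it. The 2 subunits of 1 enzyme thus lay on opposite sides of 2-fold with nearly equal ratios. Ucp3, a carrier of the inner membrane that is found in muscle, was dim and had a ratio of 1.20. Ucp2 (0.90), the electron carrier oxidoreductase Etfdh (0.89), the carnitine acetyltransferase Crat (0.87) and the isomerase Eci2 (0.81) were the next members under the threshold.

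Peroxisomes shorten very long fatty acids. Pex11a, which makes peroxisomes divide, read -2.11 in Control, -1.39 in HSD1 and -0.84 in HSD1+BVT, 2.42-fold above Control and at 0.99 with the normexp correction. Oxct1, which lets tissues burn ketone bodies, had the lowest ratio in the list, -0.43. Outside the lists, and chosen after their values were seen, Ech1, an isomerase of unsaturated acyl-CoA, was 3.52-fold and Hsdl2, a peroxisomal dehydrogenase, 2.72-fold above Control, with ratios of 0.41 and -0.02 on the HSD1 array.

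**Figure D3:**
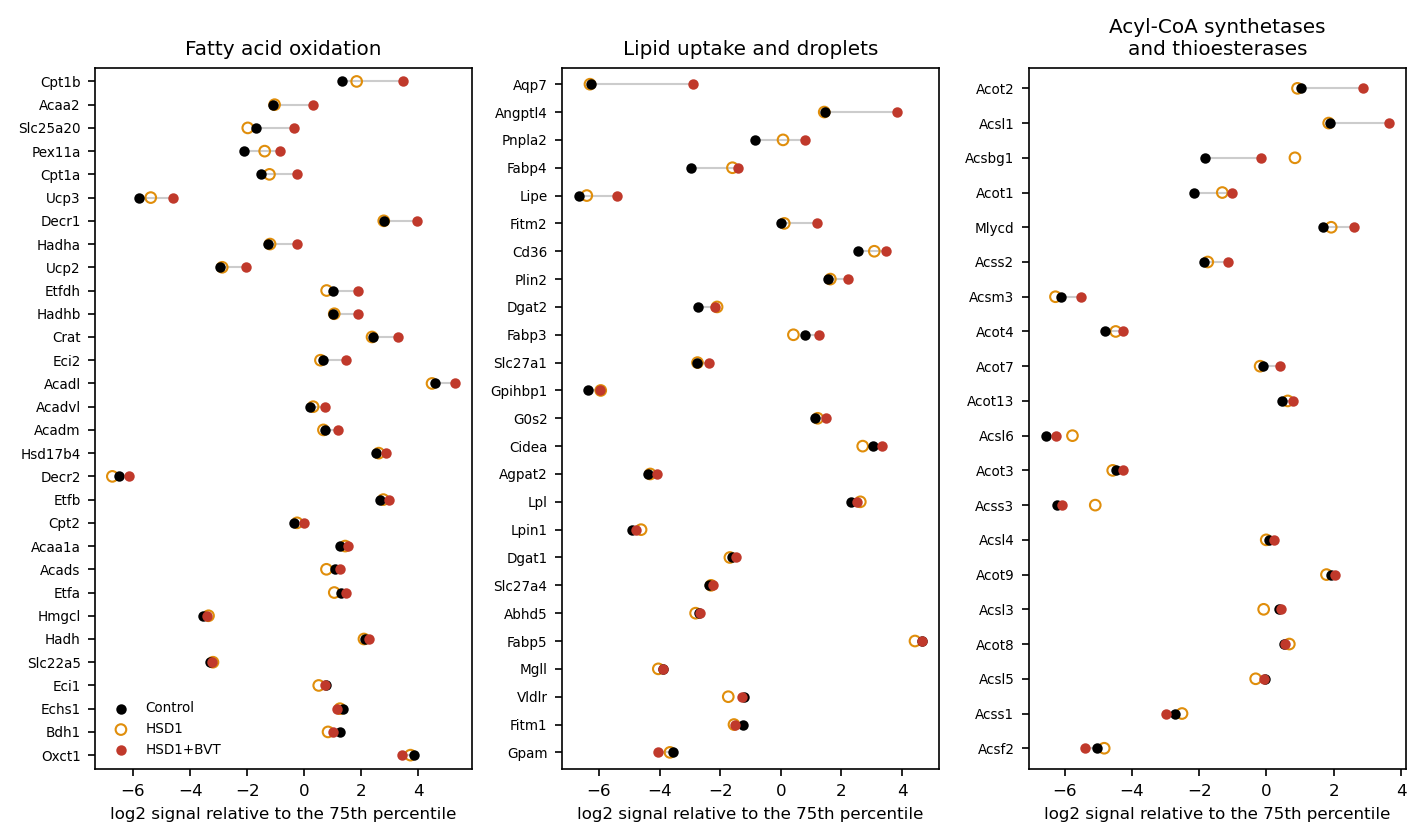
Signals of measured members of 3 lipid gene lists on the 3 arrays (x axis, log2 relative to the array's 75th percentile), ordered by the ratio of HSD1+BVT to Control; black, Control; open orange, HSD1; red, HSD1+BVT; 1 array each. In 8, 6 and 4 genes of the panels from left to right the red point lies 1 unit or more right of the black point, and in none 1 unit or more left of it.

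Genes of lipid uptake, storage and lipolysis gave 6 higher members of 25 (24.0%, against 2.93% of all genes) and none lower. The median was 0.35. Angptl4, a secreted inhibitor of lipoprotein lipase, read 1.46 in Control, 1.43 in HSD1 and 3.84 in HSD1+BVT. Pnpla2, the lipase that begins the breakdown of triglyceride in droplets, read -0.85, 0.07 and 0.81 in the same order, 3.18-fold above Control. Lipe, which takes the next step of lipolysis, was dim and 2.37-fold above Control. Fabp4, a fatty acid binding protein of fat and endothelial cells, read -2.97, -1.60 and -1.40, 2.97-fold above Control, with both vector-treated arrays high. Fitm2, which helps droplets to form, was 2.28-fold above Control and had a ratio of 0.12 on the HSD1 array.

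Aqp7, a channel for glycerol, had the highest ratio of the list, 3.36, with -6.27 in Control, -6.30 in HSD1 and -2.91 in HSD1+BVT. It was near the lower limit of measurement on the first 2 of these arrays. The fatty acid receptor gene Cd36 had a ratio of 0.93, just under 2-fold, the droplet coat gene Plin2 one of 0.65, and Lpl, the lipase that Angptl4 inhibits, one of 0.22. Of 6 fat cell markers on the array, Lep, Cidec and Pck1 were not well above background in Control or HSD1+BVT, and Adipoq, Cfd and Retn had ratios of 0.39, 0.03 and 0.53.

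Activation of fatty acids to acyl-CoA and its reversal by thioesterases showed 4 higher genes of 20 and none lower. The higher share was 20.0%, against 2.93% of all genes, and the median was 0.31. Acsl1, the main acyl-CoA synthetase of heart and fat, read 1.89 in Control, 1.85 in HSD1 and 3.64 in HSD1+BVT, 3.36-fold above Control. Acot2, a mitochondrial thioesterase, read 1.03, 0.92 and 2.86 in the same order, 3.54-fold above Control, and its other probe gave a ratio of 1.53. Acot1, its cytosolic relative, was 2.20-fold above Control and at 0.94 with the normexp correction. These 2 thioesterase genes are close copies of each other, so their probes may read both transcripts. Acsbg1, a synthetase of very long fatty acids, had another order, with -1.83 in Control, 0.85 in HSD1 and -0.16 in HSD1+BVT. Mlycd, which removes the inhibitor of the carnitine step, had a ratio of 0.94.

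Together the 3 lipid lists held 76 measured genes, of which 18 were higher (23.7%, against 2.93% of all genes) and none was lower, and 64 lay above 0. Of the 18 higher genes, 15 lay above the median of all genes on the brighter of the 2 arrays, which for a higher gene is HSD1+BVT. With both arrays required above the median signal, the lists in the order above held 6, 3 and 3 higher genes. The count of higher genes was between 12 and 23 over all settings, with no lower gene in any of them.

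At the entry of pyruvate into mitochondria, 2 of 14 genes were higher (14.3%, against 2.93% of all genes). Both were kinases that switch off pyruvate dehydrogenase. Pdk4 was dim and read -6.25 in Control, -5.81 in HSD1 and -3.97 in HSD1+BVT, a ratio of 2.28 that became 0.82 with the normexp correction. Pdk1 read -3.93, -2.71 and -2.40 in the same order, 2.89-fold above Control. Among 15 regulators of the PPAR, ERR and PGC-1 families 1 was higher. Ppard, the PPAR form found in most tissues, had a ratio of 1.15 by its brighter probe and of 0.15 by the other, so its call rests on 1 probe. Ppara had a ratio of -0.03, Pparg of 0.63, and the coactivator gene Ppargc1a of 0.77.

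Other fuel pathways had no gene 2-fold from Control. None of 32 genes of glycolysis, glucose uptake and glycogen was higher or lower (median 0.14), with the muscle enolase gene Eno3 at -0.67 and the glucose transporter gene Slc2a1 at 0.54. None of 37 genes of the citrate cycle and respiratory chain was either (median 0.07, with a sign that turned under 4 alternative settings). The most extreme of these was Slc25a4, which exchanges ADP and ATP across the inner membrane, at 0.77.

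Cholesterol synthesis genes had a median of 0.35, between 0.24 and 0.36 over all settings, with 22 of 25 above 0 and none 2-fold away. Hmgcs1, which makes the precursor of mevalonate, read 4.52 in Control, 4.31 in HSD1 and 5.12 in HSD1+BVT, 1.52-fold above Control. Insig1, which holds the pathway's activator in the endoplasmic reticulum, had a ratio of 0.62. Targets of the oxysterol receptor LXR held 2 lower genes of 21 (against 0.751% of all genes) and no higher one. Abcg1, which exports cholesterol, read 0.10 in Control, -0.11 in HSD1 and -1.48 in HSD1+BVT. Apoc1, an apolipoprotein, read -1.96, -2.01 and -3.57 in the same order, 3.04-fold lower than in Control. The exporter gene Abca1 had a ratio of -0.92, while the lipogenic genes Fasn and Scd had 0.19 and 0.55. The list's median of 0.03 turned its sign under 5 alternative settings.

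Xenobiotic metabolism had a median of 0.51, with 5 of 20 genes higher (against 2.93% of all genes) and none lower. Of these 5, 3 lay above the median of all genes on the brighter of the 2 arrays. The count of higher members ranged from 0 to 6 over all settings. With both arrays above the median signal, 7 members were left and none was higher. After quantile normalization, after cyclic loess and in the authors' values 1 member was lower. Sult1a1, a sulfotransferase that the receptor target list also holds, read -2.15 in Control, 0.73 in HSD1 and 0.49 in HSD1+BVT. Aldh3a1, an aldehyde dehydrogenase induced by aryl hydrocarbons and steroids, read -3.40, -1.80 and -1.11 in the same order. Cyp1a1, the classical target of the aryl hydrocarbon receptor, read -4.49 in Control, -4.19 in HSD1 and -2.49 in HSD1+BVT. Its neighbour in function Cyp1a2 was measured on the HSD1+BVT array but lay too near background in Control, which makes it at least 4.05-fold higher. Ces1d, a carboxylesterase, was 4.01-fold above Control, and Fmo2, a flavin-containing monooxygenase, 2.37-fold. On the HSD1 array Cyp1a1 had a ratio to Control of 0.30.

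Redox defence genes driven by NRF2 had 2 higher of 32 (6.25%, against 2.93% of all genes), none lower, and a median of 0.28. Nqo1, a quinone reductase, read -2.08 in Control, -2.03 in HSD1 and -0.89 in HSD1+BVT, 2.28-fold above Control. Hmox1, which degrades heme, read -0.90, -1.03 and 0.19 in the same order, 2.13-fold above Control. Both ratios were just under 1 with the normexp correction, at 0.97 and 0.95. Gclc and Gclm, the subunits of the enzyme that limits glutathione synthesis, had ratios of 0.39 and 0.32.

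Chemokine genes had the lowest median of the 41 pathway lists, -0.39, with 4 of 24 lower (against 0.751% of all genes), 1 higher and 18 below 0. The median was between -0.49 and -0.27 over all settings, and with both arrays above the median signal the IGF system (-0.34), the cell cycle (-0.31) and Wnt and Notch genes (-0.28) had lower medians than the chemokines (-0.27). Ccl11, which attracts eosinophils, read -0.63 in Control, -1.73 in HSD1 and -2.39 in HSD1+BVT. Ccl12, a ligand that draws monocytes, read -3.05, -5.18 and -4.68 in the same order, 3.10-fold lower than in Control. Cxcl13, which attracts B cells, read -3.88, -4.95 and -5.39, and Ccl19, which attracts T cells and dendritic cells, had a ratio of -1.12. The last 2 had ratios of -0.91 and -0.98 with the normexp correction. Ccl2, the main monocyte attractant and a bright gene, had a ratio of -0.59, and Ccl7 one of -0.95, just under 2-fold. Ccl21 was the higher member, near background at -6.50 in Control and -5.14 in HSD1+BVT, and its ratio of 1.37 became 0.17 with the normexp correction. Cxcl9 was measured in Control at -3.66 and was not well above background with vector and inhibitor, at least 8.23-fold lower.

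Among 31 cytokines and inflammatory enzymes 3 were lower (against 0.751% of all genes) and none higher. The median was 0.07 and turned its sign under 6 alternative settings. Il6 read -1.74 in Control, -3.27 in HSD1 and -3.37 in HSD1+BVT. Il1b read -1.83, -3.41 and -3.30 in the same order. Il34, a ligand of the macrophage growth factor receptor, had a ratio of -1.02, at -0.97 with the normexp correction. Tnf had a ratio of -0.43. Of 25 acute phase and complement genes 3 were higher and none lower, and they were Orm1, A2m and Serpina3n. Serpina3n, an inhibitor of serine proteases, read 0.39, 2.63 and 2.25, 3.61-fold above Control.

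Interferon response genes lay slightly below Control, with 27 of 34 ratios below 0 and a median of -0.21. None was 2-fold lower and 1 was higher, where 0.751% of all genes were lower and 2.93% higher. On the HSD1 array, against the same Control array, 13 of 33 were lower, where 0.547% of all genes were. The median there was -0.85. The higher gene was Ifi47, a GTPase induced by interferon, which read -1.44 in Control, -2.65 in HSD1 and -0.39 in HSD1+BVT. Its ratio of 1.05 lay just under 1 in 4 alternative settings, between 0.93 and 0.98. The ubiquitin-like gene Isg15 read 0.41, -1.60 and -0.52 in the same order, a ratio of -0.93. Irf7, the transcription factor that amplifies interferon, read 0.24, -1.01 and 0.23, so that Control and HSD1+BVT nearly coincided. Antigen presentation genes had no member of 15 at 2-fold (median -0.14).

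Collagens were near Control, with none of 22 genes 2-fold away and a median of -0.11. Col1a1, the main fibrillar chain, had a ratio of -0.24, Col3a1 one of -0.41, and Col14a1, which binds collagen fibrils, the lowest at -0.87. Of 33 matrix glycoproteins and proteoglycans 1 was lower and 23 lay below 0, with a median of -0.18. It was Fbln1, a glycoprotein of elastic fibres and basement membranes, which was dim and had a ratio of -0.69 with the normexp correction, under 2-fold. Lum, a proteoglycan that spaces collagen fibrils, read -1.01 in Control, -1.90 in HSD1 and -2.01 in HSD1+BVT, 1.99-fold lower and just under the threshold. Fibronectin, Fn1, had a ratio of 0.13 and the growth factor gene Ccn2 one of 0.04. Among 31 matrix proteases and their inhibitors 1 was higher. Mmp24, a membrane-bound metalloproteinase, read -2.04, -0.22 and -0.56, 2.79-fold above Control.

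In the TGF-beta and BMP family 1 of 33 genes was lower, none was higher and the median was -0.14. Bmper, a secreted modulator of BMP signals, read 0.43 in Control, -0.29 in HSD1 and -0.68 in HSD1+BVT, 2.16-fold lower, and its other probe gave -0.74. In the IGF system 1 of 14 was lower. Igfbp4, which binds IGF and limits its action, read 1.14, 0.76 and -0.22 in the same order, 2.57-fold lower than in Control. Igf1 itself had a ratio of -0.51 and Igfbp3 one of -0.63.

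Wnt and Notch genes gave 1 higher and 2 lower members of 27 (median -0.16), where 2.93% of all genes were higher and 0.751% lower. The lower ones, Sfrp4 and Frzb, both encode secreted proteins that bind Wnt ligands. Frzb read -0.27 in Control, -0.29 in HSD1 and -1.34 in HSD1+BVT, 2.10-fold lower, and Sfrp4 was 2.11-fold lower, with a ratio of -0.78 after the normexp correction. The higher one, the endothelial receptor gene Notch4, was dim and had a ratio of 1.33, or 0.45 with the normexp correction.

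Cell cycle and DNA replication genes shared a small shift. None of 41 was 2-fold away, 33 lay below 0 and the median was -0.30, between -0.40 and -0.30 over all settings, against 0.05 for all genes. Ube2c, which drives exit from mitosis, had the lowest ratio, -0.60. The cyclin gene Ccna2 read 0.47 in Control, 0.31 in HSD1 and -0.10 in HSD1+BVT, and Cdk1, the kinase that starts mitosis, read 1.09, 1.12 and 0.63. In pooled cultures, fewer dividing cells and less of these transcripts per cell cannot be told apart.

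**Figure D4:**
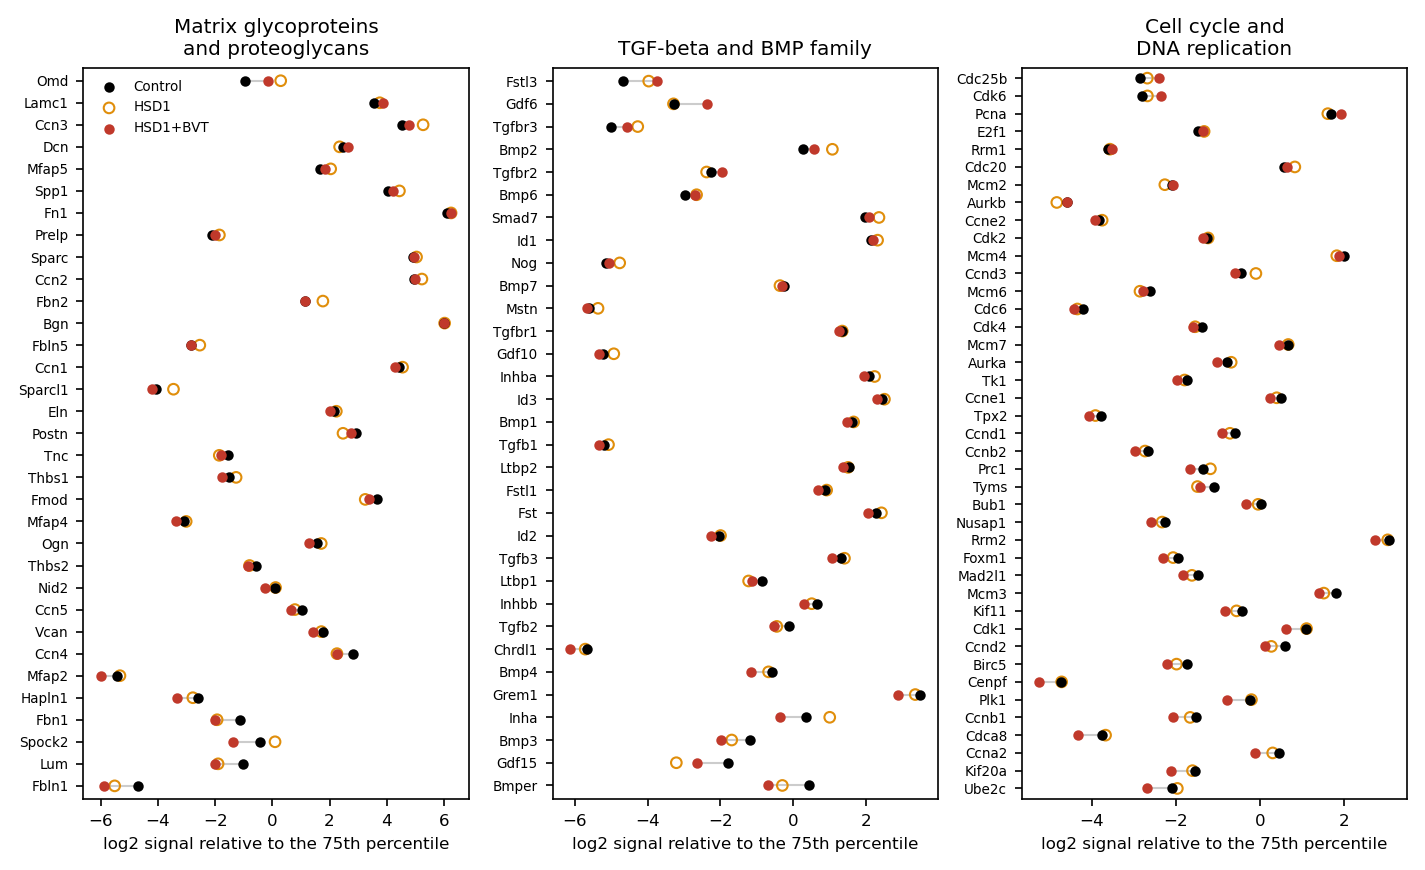
Signals of measured members of 3 gene lists on the 3 arrays (x axis, log2 relative to the array's 75th percentile), ordered by the ratio of HSD1+BVT to Control; black, Control; open orange, HSD1; red, HSD1+BVT; 1 array each. Fbln1 in the left panel and Bmper in the middle panel are the members 2-fold or more lower, and in the right panel 33 of 41 cell cycle genes have the red point left of the black one by 0.60 or less.

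Markers of cardiomyocyte hypertrophy mostly lay near Control, with none of 18 higher, 1 lower, which was Il6, and a median of 0.13. The highest ratio in the list was 0.95, just under 2-fold. The natriuretic peptide gene Nppa read 4.76 in Control, 5.00 in HSD1 and 4.85 in HSD1+BVT, and Nppb read 5.05, 5.01 and 5.59. The fetal myosin gene Myh7 had a ratio of 0.14, the adult form Myh6 one of 0.15, and skeletal actin, Acta1, one of 0.17. None of these 5 reached 1.5-fold. Of 29 sarcomere genes 1 was higher and none lower (median 0.15). Lrrc39, a protein of the M-band that joins myosin filaments, read -0.02 in Control, -0.12 in HSD1 and 1.95 in HSD1+BVT, 3.93-fold above Control, and its other probe gave a ratio of 2.07.

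Calcium handling genes gave 2 higher of 24 (8.33%, against 2.93% of all genes) and none lower (median 0.14). Cacng7, an auxiliary subunit of calcium channels and glutamate receptors, read -2.77 in Control, -2.72 in HSD1 and -0.91 in HSD1+BVT, 3.64-fold above Control. Fkbp1b, which stabilises the calcium release channel, was 2.05-fold above Control, and its ratio lay between 0.97 and 0.99 in 4 alternative settings. The pump gene Atp2a2 had a ratio of -0.02 and the release channel gene Ryr2 one of -0.18. Among 28 potassium and pacemaker channel genes 1 was higher and 1 lower. Kcne1, a subunit of the slow repolarising potassium channel, read -2.98, -2.22 and -1.48, 2.83-fold above Control. Scn4b, a beta subunit of sodium channels, had a ratio of -1.14, or -0.79 with the normexp correction. Cardiac transcription factors had no member of 22 at 2-fold, with Gata4 at 0.00 and Nkx2-5 at 0.25, and Tbx3, a repressor active in the conduction system, the highest at 0.83.

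Vasoactive signalling held 2 higher and 3 lower genes of 34, where 2.93% of all genes were higher and 0.751% lower. The median was 0.02. Corin, the protease that activates natriuretic peptides, read -4.57 in Control, -2.70 in HSD1 and -3.13 in HSD1+BVT, 2.72-fold above Control. Agtr1b, an angiotensin receptor, was dim and 2.15-fold above Control. The ratios of Corin and Agtr1b became 0.74 and 0.63 with the normexp correction. The lower genes were Rgs5, a regulator of G protein signals in pericytes (-1.40), the endothelin receptor gene Ednrb (-1.07) and the alpha-1 adrenergic receptor gene Adra1d (-1.04). Of these 3, Rgs5 and Ednrb were under 2-fold with the normexp correction, at -0.77 and -0.78. Agtr1a, the main angiotensin receptor gene of rat heart, had a ratio of 0.02.

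Genes of neuropeptides and peptide hormones gave 2 higher and 3 lower of 31, where 2.93% of all genes were higher and 0.751% lower. Gal, which encodes galanin, read -3.71 in Control, 1.20 in HSD1 and -0.49 in HSD1+BVT, and its other probe gave a ratio of 3.16 beside 3.22. Trh, the thyrotropin-releasing hormone gene, read -2.76, -1.37 and -0.92 in the same order, 3.56-fold above Control. The secretogranin gene Scg2, whose product fills secretory granules, read -0.46, -1.14 and -1.85, 2.62-fold lower than in Control. Nppc, the natriuretic peptide of vessels and bone, and Grp, which encodes gastrin-releasing peptide, had ratios of -1.69 and -1.07, and of -0.88 and -0.68 with the normexp correction. Both were dim.

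In 7 further lists no measured gene was 2-fold from Control. They were growth signalling (26 genes), the circadian clock (17), immediate early genes (25), muscle atrophy and autophagy (24), the unfolded protein and heat shock response (23), p53 targets and apoptosis (32) and cytosolic ribosomal proteins (71). Fos, an immediate early transcription factor, had a ratio of 0.79, and Trim63, the muscle ubiquitin ligase MuRF1, one of 0.76. The ubiquitin ligase gene Fbxo32 had one of -0.30. Of the ribosomal protein genes 65 had ratios above 0, with a median of 0.13 that was 0.00 after quantile normalization and in the authors' values. Among MAP kinase phosphatases and Sprouty genes Dusp2, at 1.07, was the one higher member of 17, and among amino acid transporters Slc38a3, at 1.03, was the one of 25. Both were dim and under 2-fold in 5 alternative settings.

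**Figure D5:**
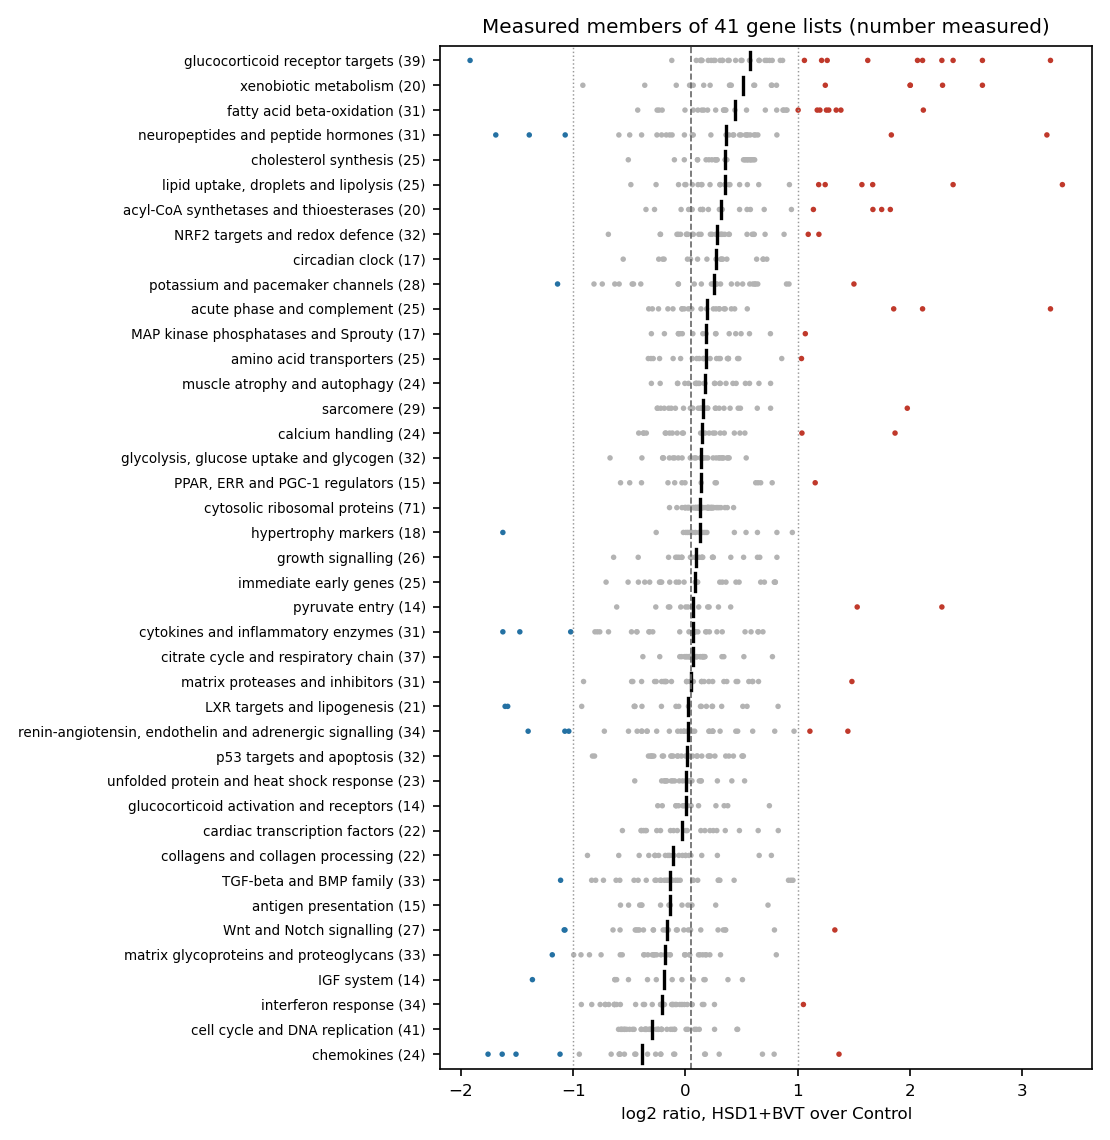
Log2 ratios of HSD1+BVT to Control (x axis) for the measured members of 41 gene lists, ordered by the list's median; the number measured is in brackets, red and blue points are 2-fold or more higher and lower, black bars are medians and the dashed line is the median of all 11721 genes, 0.05. Medians run from 0.57 for glucocorticoid receptor targets to -0.39 for chemokines.

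Single genes outside these lists were named by a rule of size and of call under several scalings. Txk, a tyrosine kinase of T cells, had the highest ratio among them, with -2.59 in Control, 0.30 in HSD1 and 1.05 in HSD1+BVT. Cldn1, a protein of tight junctions, read -1.49, 1.27 and 0.56 in the same order, 4.13-fold above Control. Tnfrsf17, a receptor of plasma cells, read -3.20, -0.51 and -0.93, 4.83-fold above Control. In these 3 genes both vector-treated arrays stood above Control. Slc25a34, a mitochondrial carrier named from the solute carrier family, had another order, with -4.24, -4.65 and -2.08, 4.47-fold above Control on the HSD1+BVT array alone.

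Further bright genes, chosen after their values were seen, showed these same orders of the arrays. Steap4, a metal reductase, read 2.03 in Control, 3.39 in HSD1 and 3.45 in HSD1+BVT. Prodh, which begins proline breakdown, read -0.43, 1.32 and 1.16 in the same order, and Glrx, which reduces glutathione bound to proteins, read -1.11, 0.85 and 0.62. The mitochondrial creatine kinase gene Ckmt2 had a ratio of 1.30, the selenium transport gene Selenop one of 1.28 and the water channel gene Aqp1 one of 1.24, beside 1.59, 1.24 and 1.78 on the HSD1 array. Tppp3, a tubulin-binding protein, was high on the HSD1+BVT array alone, with -2.12, -2.03 and -0.39. Podxl, a sialomucin of podocytes and endothelium, lay between, with -1.02, -0.09 and 0.71.

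Among the lower genes under that rule were several of signalling. Rgs3, a regulator of G protein signals, read 2.75 in Control, 2.39 in HSD1 and 1.53 in HSD1+BVT, 2.33-fold lower. Mcf2l, an exchange factor for small GTPases, read -1.50, -1.74 and -3.05, 2.94-fold lower. Klhdc8a, a kelch domain protein, had a ratio of -1.51. Plppr5, a membrane protein related to lipid phosphatases, read 0.38, -0.52 and -0.97, and its other probe gave -1.25 beside -1.34. Cd200, a ligand that restrains myeloid cells, had a ratio of -1.30, while its other probe gave -0.58 and the mean of both lay under 2-fold. Pcp4l1 read -0.82, -1.66 and -2.52, Ppp2r2b, a regulatory subunit of protein phosphatase 2A, read -0.57, -1.76 and -2.21, and Mlf1 read -1.59, -2.38 and -3.19. On each of these last 3 the HSD1 array lay between the other arrays.

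Genes measured on only 1 of the 2 arrays were counted where the bound was above 1-fold. Of these, 351 were above background with vector and inhibitor and 431 in Control, and the bound reached 2-fold for 139 and 67 of them. High bounds were those of Defb49, a beta-defensin, at least 36.0-fold higher, and the pancreatic amylase gene Amy2a3, at least 23.8-fold. Fam210b, a mitochondrial protein of red cell precursors, was at least 8.10-fold and the pancreatic carboxypeptidase gene Cpb1 at least 7.74-fold higher. Zbtb16, a transcription factor that glucocorticoids induce, read -7.55 in Control, below background, -4.83 in HSD1 and -4.28 in HSD1+BVT, at least 5.64-fold higher. The atrial potassium channel gene Kcna5 was at least 4.93-fold higher. In the other direction Ucn3, which encodes a peptide of the corticotropin-releasing family, was at least 10.8-fold lower, Prh1 at least 7.30-fold, Pdzd9 at least 7.04-fold and the protease gene Tmprss11c at least 5.94-fold. On the HSD1 array these 4 genes were below background too. Thrb, a thyroid hormone receptor, was at least 3.26-fold lower.

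Markers of heart cell types were set beside these lists. All 15 measured cardiomyocyte markers were within 2-fold of Control, with a median of 0.15, and their summed signal came to 8.70 (Control), 8.85 (HSD1) and 8.88 (HSD1+BVT). Troponin T, Tnnt2, read 6.70 in Control and 6.96 in HSD1, with a ratio of HSD1+BVT to Control of 0.30, so the defining markers of the labelled cell type were bright on every array. Of 15 fibroblast markers 11 lay above the median of all genes on the brighter of the 2 arrays, with Col1a1 at 6.26 in Control. Fbln1, Fap, Thy1 and Pi16 were dim, between -4.69 and -2.77 in Control. Of the 15 fibroblast markers 1 was lower, and their median was -0.19. Their summed signal was 7.65, 7.65 and 7.57 in Control, HSD1 and HSD1+BVT. Smooth muscle and pericyte markers had 1 lower of 13, Rgs5, and a median of -0.23. Their summed signal went from 5.64 to 5.45 between Control and HSD1+BVT, and their part in the lower matrix and vascular genes was not tested. In cultures of several cell types, fewer cells of a type and less RNA per cell cannot be told apart.

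Endothelial markers had a median of 0.20 over 10 genes with none 2-fold away, and Tie1 and Emcn were not well above background. The highest was Kdr, a receptor of vascular growth factor, at 0.91, with 2.27 in Control and 3.18 in HSD1+BVT. The summed signal of all 12 endothelial markers on the array was 2.55 in Control and 3.37 in HSD1+BVT, most of it from Kdr. Their part in the higher Fabp4 and Notch4 was not tested. Macrophage markers had 1 higher of 12, the mannose receptor gene Mrc1 (1.03, and under 2-fold in 5 alternative settings), and a median of 0.11. The summed signal of all 15 macrophage markers on the array was 3.80 in Control and 3.93 in HSD1+BVT. Cd163 and C1qa were below background on both arrays. Beside Txk and Tnfrsf17, known from lymphocytes, the T cell genes Cd3e, Cd2, Cd5 and Cd8a and the B cell gene Cd79b were not well above background on either array. Cd3d, Cd3g and Cd4 were measured, with ratios of 0.61, 0.87 and 1.46, the last one dim and at 0.32 with the normexp correction. Of red cell markers 1 of 4 was higher, the heme synthesis gene Alas2 at 1.99, or 0.94 with the normexp correction, while Hba-a1, Slc4a1 and Ahsp had ratios of 0.70, 0.27 and -0.20 and Hbb was above background in Control only.

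Receptor families with little known role in heart muscle made up part of the count of higher genes. Of 1262 olfactory and vomeronasal receptor genes on the array 365 were measured on both arrays. Of these 60 were higher (16.4%, against 2.93% of all genes) and 5 lower (against 0.751% of all genes), with a median of 0.56. They made up 60 of the 344 higher genes, and 3 of the 60 lay above the median of all genes on the brighter of the 2 arrays. Their median signal was -5.01 in Control and -4.38 in HSD1+BVT. On the HSD1 array, against the same Control, 7 of 378 were higher, where 1.33% of all genes were. Or6c38, the highest of them, read -5.65 in Control, -5.55 in HSD1 and -2.82 in HSD1+BVT. For 154 measured zinc finger genes 2 were higher, none was lower and the median was 0.05. The 2931 dimmest of all genes held 151 higher genes and had a median ratio of 0.17. The 2930 brightest held 37 and had one of 0.03. The part of signal near background in the higher receptor genes was not tested.

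Where a called gene had a further measured probe, that probe had the same direction for 39 of 45 genes and was itself at 2-fold for 16. Across the 1877 genes with further probes, the ratios of the probes correlated at r = 0.49, which describes probes of the same 2 arrays.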

How the data were processed

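RNA of 1 pool of cells per group was labelled with Cy3 and hybridised to 3 one-colour Agilent arrays, 1 per group. The deposited intensity values are, per the file headers, the background-subtracted processed signal of each spot and the median signals of spot and background, extracted with Agilent Feature Extraction 11.0.1.1, per the submitters' processing notes. Log2 values in a further table by the authors correlated at r = 1.00 with these on each array, and its columns share a median of 6.69. Its normalization method is not stated in the sources used here.

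Here each log2 processed signal was taken relative to the 75th percentile of gene spots (1320 in Control, 1169 in HSD1, 1549 in HSD1+BVT). Outlier spots (311, 409 and 363) were left out, no spot was saturated, and spots of a probe were averaged. Between 81.2% and 82.5% of spots were well above background, and probes correlated between arrays at r = 0.99. Of 30366 probes 18005 matched 1 of 15168 genes through RefSeq accessions (assembly GRCr8), and the probe with the highest mean signal stood for a gene. The array's own annotation is on an older build, and genes are given without coordinates. Calls are sizes of 2-fold or more between 2 arrays, with no test, and their precision is limited by the number of arrays. Bounds use the lowest signal well above background.

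The alternatives were quantile normalization and cyclic loess (limma 3.58.1 in R 4.3.3), median centring, normexp (offset 50) on the median signals, the authors' table, no filter, a stricter filter, the mean over probes, and thresholds of 1.5-fold and 3-fold. Normexp was not used for the HSD1 array, where 1 spot with a very bright local background distorted it. The size rule was checked on simulated data that held only the spread between spots of a probe. Spread between cultures, pools or scans was not in them, so the check does not measure the error of the calls. The members and the 52 gene lists were chosen with earlier results of these data known. Named genes were the 12 highest and 12 lowest that kept their call under other scalings and were bright, in each list up to 4 called genes in either direction, failing which the most extreme member, 20 genes fixed by name, and the 5 highest bounds in each direction. Not all are described, and some genes are not reported here or drawn.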

Additional observations from a re-analysis of the deposited data

Results flagged for a closer look

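Probes that matched no gene differed by 2-fold about as often as genes did. Of 8648 such probes well above background on both arrays, 257 were 2-fold or more higher with vector and inhibitor than in Control. That was 2.97%, against 2.93% of all genes, and 39 were lower (0.451%, against 0.751% of all genes). The highest log2 ratio among the 8648 probes was 4.96 and the median was 0.15. They enter no comparison of genes here, and their transcripts are not named. With 1 array in each group, no array could be set against others of its group.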

How the results depend on the processing

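The number of higher genes, 344, was 194 after quantile normalization, 91 with the normexp background correction, 190 in the authors' table, 898 without the filter on dim probes, 61 with both arrays above the median signal, 1167 at 1.5-fold and 70 at 3-fold. It was 232 after cyclic loess, 284 with median centring and 332 with the mean over probes. The number of lower genes, 88, was 155 after quantile normalization, 146 after cyclic loess, 38 with normexp, 149 in the authors' table, 551 without the filter, 12 with both arrays above the median signal, 427 at 1.5-fold and 19 at 3-fold, and 112 and 86 under the other settings. The cause was not tested, apart from the settings that change how many genes are tested or the threshold.

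Of 99 named genes at 2-fold or more none turned its direction under these settings. Of the 99, 57 stayed at 2-fold or more under every setting that gave a value. The 99 include the 12 highest and 12 lowest bright genes, named because they kept their call under other scalings. For those genes, staying at 2-fold under those scalings was fixed by the choice, so it does not show stability. Normexp took 40 of the 99 under 2-fold, quantile normalization 12, and the authors' values 12. Of 52 lists 34 kept the sign of their median under every setting. No paired analysis was possible because each group has 1 array. Leaving out an array was not possible, since each group has 1, and the spread between cultures is unknown. The HSD1+BVT array was alone in its scan. Replicate spots had the widest technical spread among the dimmest 25% of probes.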

Other observations

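Genes of digestive secretions, a list drawn up after some of its values had been seen, held members higher on the HSD1+BVT array than in Control. Of 20 genes that the pancreas secretes into the gut, 8 were measured on both arrays. Of these, 4 were 2-fold or more higher than in Control, where 2.93% of all genes were. None was lower and the median log2 ratio was 1.03. Since the list was picked from these values, its count is a description only. Prss1, cationic trypsinogen, read -4.66 in Control, -5.50 in HSD1 and -2.03 in HSD1+BVT, 6.18-fold above Control. Ctrc, a chymotrypsin, read -6.28, -5.24 and -4.54 in the same order, and the elastase gene Cela2a read -5.38, -4.96 and -4.25. Cel, the bile salt-dependent lipase, was 2.45-fold above Control. A further 5 genes were above background with vector and inhibitor but not in Control, which they had to be to count here. Amy2a3, Cpb1 and Amy1 were at least 23.8-fold, 7.74-fold and 6.95-fold higher, and the bounds of Cela1 and Clps lay under 2-fold. Ctrb1, another chymotrypsin gene, read -1.89 in Control and had a ratio of 0.07, and 7 genes, Prss3 and Cela3b among them, were above background on neither array. The part of dim signal in the higher genes of this list was not tested.

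Beta-defensins, small antimicrobial peptides of epithelia, were measured for 17 genes, all with ratios above 0 and a median of 0.52. They were dim, with a median signal of -4.87 in Control. Of the 17, 1 was higher (5.88%, against 2.93% of all genes). The 2931 dimmest of all genes held 151 higher genes and had a median ratio of 0.17. The higher defensin gene was Defb41, which read -6.15 in Control, -6.15 in HSD1 and -3.14 in HSD1+BVT. The part of dim signal in these values was not tested.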
